A study of Homo sapiens with 11 samples.

Results

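The genes described here are 10 noncoding hosts of small nucleolar RNAs: GAS5, ZFAS1, SNHG1, SNHG5, SNHG6, SNHG7, SNHG8, SNHG12, SNHG15 and SNHG16. They were listed by name as members of this class, with earlier results of these data known, and are 10 of 38021 genes in the table. All 10 passed the filter on low counts. The cells were HEK293T, an established human embryonic kidney line labelled wild type, treated for 6 h in 10 cm plates. Vehicle was 0.1% DMSO. Thapsigargin (Tg, 500 nM) inhibits SERCA, which fills the endoplasmic reticulum (ER) with calcium, and thereby causes ER stress. AA147 was given at 10 µM and AA132 at 0.1, 0.3, 1, 3, 6, 10, 15 or 30 µM. Both compounds are pharmacological modulators of ER proteostasis, as the series title has it. GEO lists a single sample per condition, 11 in all, but 3 numbered columns per condition are deposited, here called libraries 1, 2 and 3. The labels do not say whether these are separate cultures, so p-values measure the spread between these 33 libraries, which may be technical.

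A snoRNA host is transcribed as a long precursor. Splicing removes introns that hold small nucleolar RNAs (snoRNAs), which are trimmed out of the introns and guide the chemical modification of ribosomal and spliceosomal RNA. The joined exons leave for the cytoplasm, where ribosomes can translate their short open reading frames. Nonsense-mediated decay (NMD) is a translation-coupled pathway that degrades RNAs in which a stop codon lies well upstream of an exon junction, and spliced snoRNA host RNAs are textbook examples of its targets. Many hosts also begin with a tract of pyrimidines, the 5′ terminal oligopyrimidine (TOP) motif, which they share with ribosomal protein genes and which ties their translation to growth signals. No condition here blocked decay or translation by label, so sensitivity to decay is background and was not measured.

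In GENCODE on GRCh38 all 10 are annotated as long noncoding RNA. GAS5 lies at chr1:173858559-173868882 on the minus strand and SNHG12 at chr1:28578538-28583132 on the minus strand. ZFAS1 lies at chr20:49278178-49299600 on the plus strand, SNHG1 at chr11:62851978-62855953 on the minus strand and SNHG5 at chr6:85650491-85678932 on the minus strand. SNHG7 lies at chr9:136721366-136728184 and SNHG15 at chr7:44983019-44986961, both on the minus strand. SNHG8 lies at chr4:118278703-118285316 and SNHG16 at chr17:76557727-76670985, both on the plus strand.

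The snoRNAs are the product for which these genes are named hosts, so box C/D snoRNAs of 4 hosts are shown. Box C/D snoRNAs guide 2′-O-methylation. They are from GENCODE on GRCh38, written 5′ to 3′ as DNA on the host's strand, and each lies in an intron of the canonical host model. Capitals mark the C box letters TGATGA near the 5′ end and the D box letters CTGA near the 3′ end. Only snoRNAs with an exact match to both are shown. SNORD22, SNORD26 and SNORD28 of SNHG1 and SNORD1A and SNORD1C of SNHG16 had no exact TGATGA there. SNORD12C (chr20:49278940-49279028), SNORD12B (chr20:49280319-49280409) and SNORD12 (chr20:49280683-49280772) lie in ZFAS1 on the plus strand. SNORD27 (chr11:62855012-62855083) and SNORD25 (chr11:62855564-62855632) lie in SNHG1, and SNORD50B (chr6:85677589-85677658) in SNHG5, all on the minus strand. SNORD1B (chr17:76561109-76561192) lies in SNHG16 on the plus strand.
SNORD12C: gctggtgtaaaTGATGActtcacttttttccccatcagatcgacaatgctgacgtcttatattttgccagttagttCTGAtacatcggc
SNORD12B: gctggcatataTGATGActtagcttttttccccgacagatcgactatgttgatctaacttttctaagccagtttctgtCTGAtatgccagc
SNORD12: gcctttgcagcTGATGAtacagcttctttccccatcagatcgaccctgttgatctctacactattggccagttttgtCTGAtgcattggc
SNORD27: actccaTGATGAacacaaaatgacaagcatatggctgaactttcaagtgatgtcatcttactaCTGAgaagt
SNORD25: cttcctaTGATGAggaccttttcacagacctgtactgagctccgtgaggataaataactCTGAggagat
SNORD50B: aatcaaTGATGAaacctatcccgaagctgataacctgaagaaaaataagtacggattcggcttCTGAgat
SNORD1B: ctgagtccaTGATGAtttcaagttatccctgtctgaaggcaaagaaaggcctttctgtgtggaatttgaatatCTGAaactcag

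Some of the hosts have a pyrimidine tract at their listed start. RefSeq on GRCh38.p14 gave a promoter for 8 of the 10, and the windows of 60 bases around the listed start are shown for the 5 in which the longest run of C or T began within 5 bases of it. In GAS5, SNHG1 and SNHG7 the longest run began 25, 20 and 14 bases before the start. Capitals mark that run, the listed start is the base after the first 30, and sequences read 5′ to 3′ on the gene's strand. ZFAS1 is at chr20:49278612-49278671 (plus), SNHG5 at chr6:85678704-85678763 (minus), SNHG8 at chr4:118278732-118278791 (plus), SNHG12 at chr1:28581844-28581903 (minus) and SNHG16 at chr17:76557734-76557793 (plus).
ZFAS1: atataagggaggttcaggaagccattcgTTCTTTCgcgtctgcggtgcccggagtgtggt
SNHG5: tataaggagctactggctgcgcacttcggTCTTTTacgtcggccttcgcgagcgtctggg
SNHG8: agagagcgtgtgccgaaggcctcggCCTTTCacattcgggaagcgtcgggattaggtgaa
SNHG12: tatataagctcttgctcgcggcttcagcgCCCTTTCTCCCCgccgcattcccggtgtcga
SNHG16: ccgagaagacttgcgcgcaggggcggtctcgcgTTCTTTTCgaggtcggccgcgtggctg

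A run of at least 6 pyrimidines occurred in the windows of 7 of 8 hosts and in 49.56% of 35116 RefSeq promoters. A run of at least 8 occurred in 3 of 8 and in 23.76%. The median longest run was 7 bases in the hosts and 5 in all promoters. The letters TATAA, the core of a TATA box, occurred on the gene's strand in the 50 bases before the start in 5 of 8 hosts and in 4.74% of promoters, a motif searched after the sequences were seen. The motif TGATGNAA, to which ATF4 and its partners bind, occurred on neither strand of the 300-base promoter of any of the 8 hosts, and in 3.62% of all promoters. The ER stress element, CCAAT and CCACG with 9 bases between them, was also in 0 of 8 on either strand, against 0.08% of promoters, and the letters CACGTG in 1 of 8, against 7.26%. These letter matches are descriptions, and listed starts are uncertain: RefSeq and GENCODE placed the start of SNHG12 1259 bases apart, that of ZFAS1 464 and that of SNHG5 199.

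Reading frames were examined for the layout that NMD is known to recognise, a stop codon well upstream of an exon junction. In the canonical transcripts, the frame opened by the first ATG ended more than 50 bases upstream of an exon junction in 10 of 10 hosts, against 3 of 40 protein-coding snoRNA hosts. Some of these first frames were very short, at 3 codons in SNHG15, 5 in SNHG12 and 12 in SNHG5. Noncoding RNAs that host no snoRNA were not examined, so the counts do not set the hosts apart from them. The longest open reading frame had a median of 69.5 codons in the 10 hosts (45 to 181) and 219.5 codons in the coding hosts (51 to 1038). For that longest frame, a junction lay more than 50 bases downstream in 4 of 10 hosts (GAS5, SNHG1, SNHG5 and SNHG15) and in 0 of 40 coding hosts. GAS5 has 12 exons in 768 bases and a first frame of 50 codons, followed by 5 such junctions. SNHG1 has 11 exons in 1162 bases and a first frame of 57 codons, followed by 7.

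Library totals ran from 32.3 to 37.96 M counts, and 36.4 M was the next lowest. Replicate libraries differed beyond counting error, with a chi-square per degree of freedom of 4.48 to 59.4 over 33 pairs, and were treated as replicates. Of the 5 genes listed for this line, VIM was present in every library at 702 to 1555 CPM (counts scaled to the TMM-adjusted library size). NEFL was at 46.0 to 76.9, NEFM at 37.1 to 59.9 and LHX1 at 7.32 to 14.3 CPM, while PAX2 was low, at 0.41 to 1.53 CPM. The 8 markers of other cell types summed to at most 0.291 CPM in any library, with INS at 0 counts. A few libraries stood apart for the hosts. In vehicle library 1, 10 of 10 hosts were above the mean of the other vehicle libraries, by a median of 0.38 on the log2 scale, and transcripts up to 1500 bases also lay 0.28 above while those over 5000 bases lay 0.34 below (-0.34). In AA132 10 µM library 1, 9 of 10 hosts were above the mean of its pair of mates, by a median of 0.45, with no such shift by length (0.06 and -0.0023). AA147 library 1 had 9 of 10 hosts above, by a median of 0.25. Many results are also given without vehicle library 1 or AA132 10 µM library 1, and the part of library quality in the results was not tested.

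Tg raised 9 of the 10 hosts. ZFAS1, a host named for its place at the start of ZNFX1 on the opposite strand, rose 3.17-fold, and GAS5, SNHG1, SNHG5, SNHG7 and SNHG12 rose 1.54- to 1.83-fold. SNHG6, SNHG8 and SNHG15 rose 1.32- to 1.40-fold, and SNHG16 did not pass the test. The share of all 17793 tested genes called in either direction was 31.2%, with 16.2% higher and 15% lower. With upper quartile scaling the calls over all genes moved from 2875 higher and 2676 lower to 2307 and 3428, while 9 hosts were again higher. The median log2 fold change of the 10 hosts was 0.63, against 0.0048 for all genes. Summed over the 10 hosts, vehicle had a level of 426 ± 78.3 CPM and Tg of 627 ± 8.79 CPM (SD, n = 3, as for every mean ± SD here), and the other 9 treatments had means of 388 to 446 CPM. In bulk RNA, a change in the number of cells that carry a transcript and a change in its amount per cell cannot be told apart.

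ZFAS1 had 28.9, 27.7 and 22.0 CPM in the vehicle libraries and 80.5, 86.7 and 81.8 CPM under Tg. The groups did not overlap, and no other library of the series exceeded 37.2 CPM. The fitted change was 1.66 on the log2 scale (SE 0.12, adjusted p = 2.0e-13 by edgeR). SNHG5, which carries SNORD50A and SNORD50B, had 62.5, 45.0 and 42.4 CPM in vehicle and 93.4, 88.7 and 92.8 CPM under Tg. Vehicle library 1 was the high one, yet still below every Tg library. The log2 fold change of SNHG5 was 0.87 (SE 0.12, adjusted p = 3.0e-07).

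SNHG7, a host of the H/ACA snoRNAs SNORA17A and SNORA17B, which guide pseudouridylation, had 65.5, 46.8 and 52.1 CPM in vehicle and 91.1, 88.0 and 93.2 CPM under Tg. The Tg libraries lay close together and above all others in the series, whose highest was 71.2 CPM. Its log2 fold change was 0.73 (SE 0.09, adjusted p = 9.1e-08). SNHG1, whose introns hold 8 snoRNAs of the SNORD22 to SNORD31 group, had 64.9, 63.0 and 62.9 CPM in vehicle and 105.8, 103.9 and 89.3 CPM under Tg. Here vehicle library 1 did not stand out, and Tg library 3 was the lowest of its group. The log2 fold change of SNHG1 was 0.65 (SE 0.14, adjusted p = 0.00054).

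GAS5, first described as a transcript that accumulates in growth-arrested cells and which hosts 10 snoRNAs measured here, had 14.6, 13.9 and 13.1 CPM in vehicle and 20.7, 22.2 and 21.1 CPM under Tg. The groups were 0.62 apart on the log2 scale (SE 0.16, adjusted p = 0.0025). SNHG12, with 156 to 409 counts a library, had 7.31, 5.10 and 6.36 CPM in vehicle and 10.3, 10.3 and 9.75 CPM under Tg, with a log2 fold change of 0.69 (SE 0.22, adjusted p = 0.014). Both changes were larger than the spread between libraries of either group.

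SNHG8, host of SNORA24, rose from 26.9 ± 3.07 to 37.6 ± 2.01 CPM, a log2 fold change of 0.48 (SE 0.12, adjusted p = 0.0015). SNHG15, which holds SNORA9, rose from 49.9 ± 8.63 to 68.1 ± 2.87 CPM (0.45, SE 0.12, adjusted p = 0.0054). SNHG6 (chr8:66920561-66926398, minus strand), host of SNORD87, had 31.5, 22.2 and 22.1 CPM in vehicle and 33.3, 34.2 and 32.4 CPM under Tg (0.40, SE 0.12, adjusted p = 0.0090), so that vehicle library 1 nearly reached the Tg libraries. Calls of 3 of these hosts changed with the libraries in the fit. SNHG6 was lost without vehicle library 2 (adjusted p = 0.0778) or library 3 (0.0694) and in the fit of the vehicle and Tg libraries alone (0.0954), SNHG12 without vehicle library 2 (0.0819) and SNHG15 without vehicle library 2 (0.051). Without vehicle library 1, 9 hosts were again called higher, with a median of 0.65, where 14.1% of all genes were called higher.

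SNHG16, host of SNORD1A, SNORD1B and SNORD1C, was the exception. It had 151.5, 91.3 and 85.7 CPM in vehicle and 95.7, 87.9 and 91.0 CPM under Tg. Vehicle library 1 stood far above the other 5 libraries, which overlapped. The log2 fold change was -0.26 (SE 0.13, adjusted p = 0.12), with a 95% interval from -0.51 to -0.0021. It was 0.04 (adjusted p = 0.785) without vehicle library 1. It passed as lower without vehicle library 2 (-0.39, adjusted p = 0.0223), without library 3 (-0.41, 0.0131) and with no filter on low counts (-0.28, 0.0041). The direction for SNHG16 thus changed with 1 library.

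**Figure D1:**
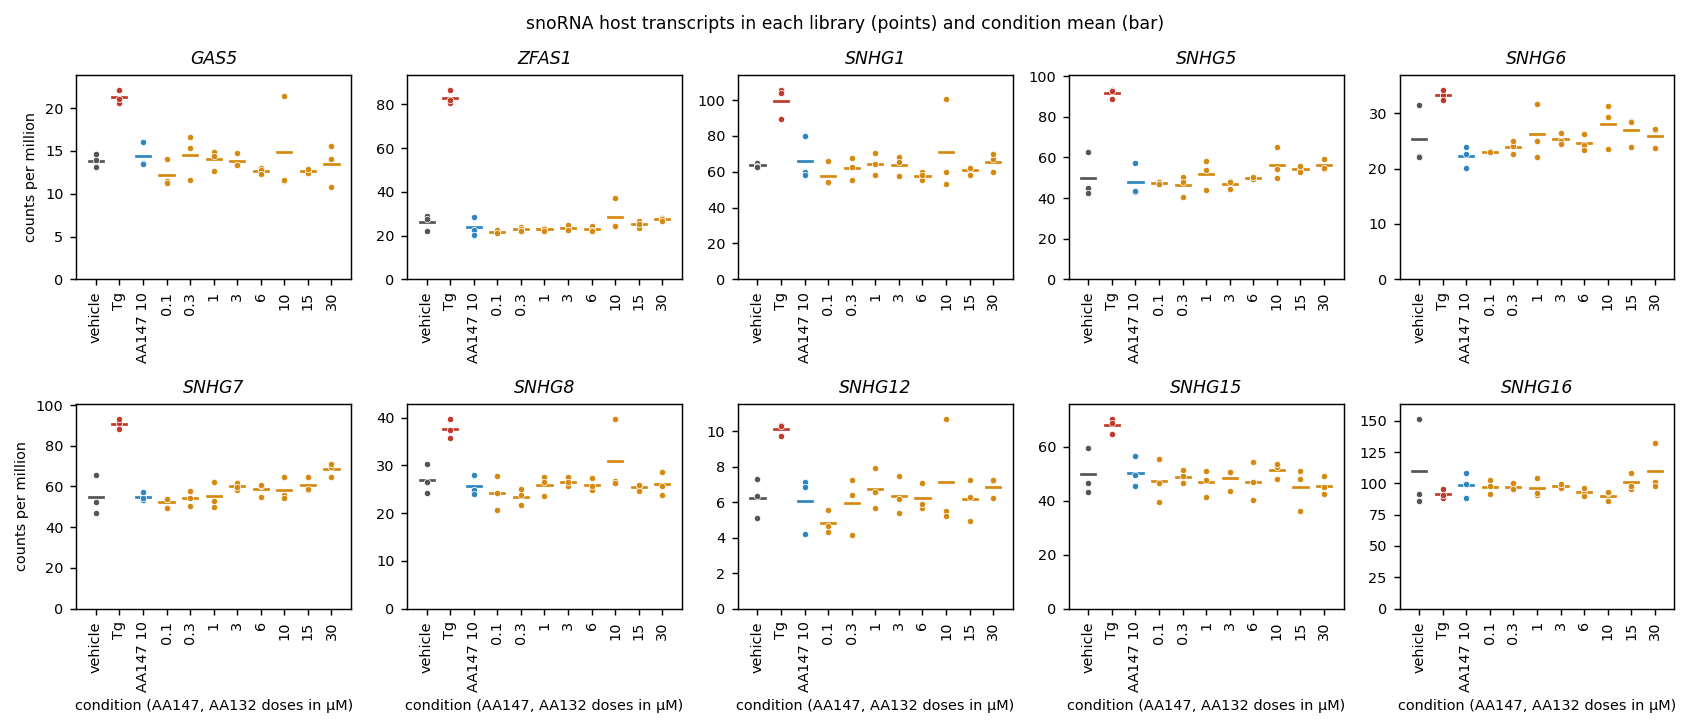
CPM of each of the 10 hosts in all 33 libraries (points), with the mean of each condition (bar); AA132 doses are in µM and each vertical axis starts at 0. The Tg libraries lie above all vehicle libraries for 9 hosts and among the others for SNHG16, and AA132 10 µM library 1 is the single high point for GAS5, SNHG1, SNHG8 and SNHG12.

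Every Tg library was above every vehicle library for 9 hosts, a separation that 20.2% of tested genes showed. For 5 hosts (ZFAS1, SNHG5, SNHG6, SNHG7 and SNHG15) the Tg libraries were also above all 30 libraries of the other conditions, as were those of 10.3% of tested genes. For GAS5, SNHG1, SNHG8 and SNHG12 exactly 1 of those 30 libraries reached the lowest Tg library, and it was AA132 10 µM library 1 each time. That library had 21.5 CPM of GAS5, where its mates had 11.4 and 11.6, and 10.7 CPM of SNHG12, where its mates had 5.48 and 5.20. For SNHG16, 28 of the 30 libraries were at or above the lowest Tg library.

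AA147 at 10 µM called 0 of the 10 hosts, with 0 also by DESeq2 and 0 at an unadjusted edgeR p under 0.05, and it called 0.0225% of all genes. Log2 fold changes against vehicle ran from -0.18 for SNHG6 to 0.05 for GAS5. ZFAS1 was at 23.8 ± 4.22 CPM with AA147 and 26.2 ± 3.66 CPM in vehicle, a log2 difference of -0.14 with a 95% interval from -0.38 to 0.10. That interval lies below the change of ZFAS1 under Tg. The median of the 10 hosts was -0.05, and it was 0.09 without vehicle library 1 and -0.13 without AA147 library 1. No host was called in either fit.

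AA132 from 0.1 to 15 µM called 0 of the 10 hosts at each of the 7 doses, by edgeR and by DESeq2. The share of all genes called was 0% at each of 0.1, 0.3 and 1 µM, and 0.118%, 1.07%, 1.41% and 2.76% at 3, 6, 10 and 15 µM. At an unadjusted p under 0.05, ZFAS1 was lower at 0.1 µM (-0.28, adjusted p = 0.99) and SNHG16 lower at 10 µM (-0.28, adjusted p = 0.34), and no other host at these doses. The host medians stayed between -0.15 and 0.14 on the log2 scale. The highest, at 10 µM, was -0.07 without AA132 10 µM library 1. Without vehicle library 1, SNHG5 was called higher at 10 µM (0.37, adjusted p = 0.0474) and SNHG7 higher at 15 µM (adjusted p = 0.0415). With no filter on low counts, SNHG16 was called lower at 10 µM (adjusted p = 0.027).

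At 30 µM AA132 called 1 of the 10 hosts, SNHG7, where 7.05% of genes were called and 3.86% were higher. SNHG7 was at 68.4 ± 3.54 CPM, against 54.8 ± 9.62 in vehicle (a log2 difference of 0.32, SE 0.09, adjusted p = 0.025). Its 3 libraries at 30 µM spanned 64.4 to 71.2 CPM and overlapped vehicle library 1 at 65.5 CPM. The call of SNHG7 was lost without vehicle library 2 (adjusted p = 0.16) or 3 (0.0929), without AA132 30 µM library 1 (0.0891) or 3 (0.0901), and in the fit of these 6 libraries alone (0.373). Without vehicle library 1, 3 hosts were called higher: SNHG7 (0.47, adjusted p = 0.00026), SNHG5 (0.36, 0.0257) and SNHG16 (0.32, 0.0211). In that fit 5.55% of all genes were called higher. ZFAS1 was at 27.5 ± 0.59 CPM, 0.07 above vehicle on the log2 scale with a 95% interval from -0.17 to 0.31, and GAS5 was at 13.5 ± 2.45 CPM, against 13.9 ± 0.77 in vehicle.

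**Figure D2:**
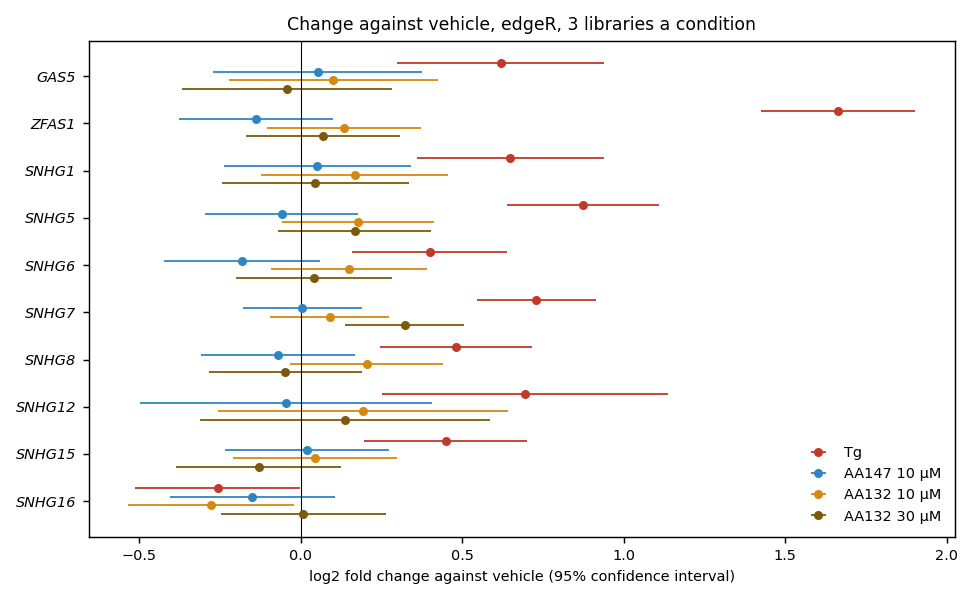
Log2 fold change of each host against vehicle under Tg, AA147 at 10 µM and AA132 at 10 and 30 µM, with 95% confidence intervals from the edgeR fit (3 libraries a condition). Tg intervals lie above 0 for 9 hosts, and of the other intervals only that of SNHG7 at 30 µM AA132 does.

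AA132 and AA147 were compared at the matched dose of 10 µM. It is the single matched pair of the series, and 0 of 10 hosts were called by edgeR or DESeq2, where 0.0674% of genes were called. SNHG6 was at 28.0 ± 3.98 CPM with AA132 and 22.3 ± 1.95 with AA147, a log2 difference of 0.33 (95% interval 0.09 to 0.57, adjusted p = 0.39). SNHG8 (0.28, interval 0.04 to 0.51, adjusted p = 0.51) and ZFAS1 (0.27, interval 0.04 to 0.51, adjusted p = 0.52) also had an unadjusted p under 0.05. The widest interval was that of SNHG12, from -0.21 to 0.69. Without AA132 10 µM library 1 the differences of ZFAS1 and SNHG8 were 0.03 and 0.05, GAS5 was at -0.33 and the median of the 10 hosts was -0.0012, in place of 0.18.

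Tg was also compared directly with the highest AA132 dose, which differs in compound and dose and shares the Tg libraries with the first comparison. AA132 at 30 µM was lower than Tg for 9 of 10 hosts, where 29.8% of genes were called and 15.5% were lower. ZFAS1 differed by -1.60 on the log2 scale (SE 0.12, adjusted p = 1.0e-12) and SNHG5 by -0.71 (SE 0.12, adjusted p = 1.2e-05). SNHG7 differed least among the largest changes under Tg, by -0.41 (SE 0.09, adjusted p = 0.00063). SNHG16 was at 110.1 ± 19.1 CPM with AA132 and 91.5 ± 3.89 with Tg, and its difference of 0.27 did not pass (adjusted p = 0.11). SNHG12 passed narrowly (-0.56, adjusted p = 0.049), and its call was lost without any 1 of the 6 libraries (0.0811 to 0.148) and under 2 other scalings (0.0517 and 0.0702). SNHG6 (-0.36, adjusted p = 0.019) was lost without Tg library 1 (0.0559) or 2 (0.0621) or without AA132 30 µM library 2 (0.0963).

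Across the 24 AA132 libraries, the slope on log10 dose tested a gradual relation that does not use vehicle. It was called for 3 of 10 hosts, all rising, where 18.7% of genes were called and 9.83% rose. Per 10-fold dose SNHG7 rose by 0.13 on the log2 scale (SE 0.02, adjusted p = 0.00040), from 52.3 ± 2.57 CPM at 0.1 µM to 68.4 ± 3.54 at 30 µM. ZFAS1 rose by 0.13 (SE 0.03, adjusted p = 0.0058), from 21.6 ± 0.72 to 27.5 ± 0.59 CPM, and SNHG5 by 0.11 (SE 0.03, adjusted p = 0.0090), from 47.2 ± 0.46 to 56.1 ± 2.82 CPM. The other 7 slopes ran from -0.01 for SNHG15 to 0.15 for SNHG12 (SE 0.07, adjusted p = 0.12).

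The slopes of SNHG7, ZFAS1 and SNHG5 were called again without AA132 10 µM library 1, at 0.12, 0.11 and 0.09. SNHG5 was not called without the 30 µM dose (0.10, adjusted p = 0.0589). With vehicle added at dose 0, ZFAS1 (0.08, adjusted p = 0.164) and SNHG5 (0.09, adjusted p = 0.0581) were not called. Vehicle lay at 26.2 ± 3.66 CPM of ZFAS1 and 49.98 ± 10.9 CPM of SNHG5, above the means at 0.1 µM. For SNHG5 this turned with vehicle library 1: against vehicle, 0.1 µM was at -0.08 on the log2 scale, and at 0.11 without that library. SNHG6 was called without AA132 1 µM library 1 (adjusted p = 0.0189) or 30 µM library 2 (0.0438).

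**Figure D3:**
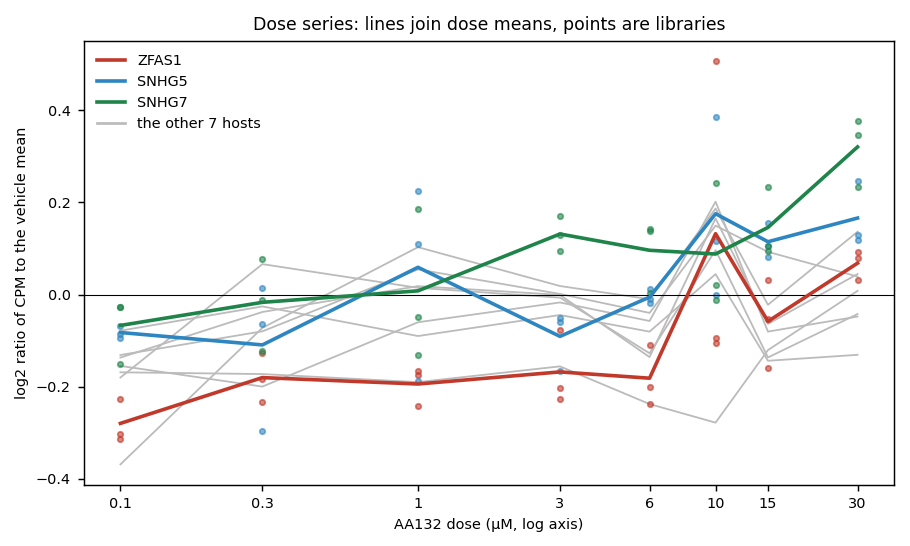
Log2 ratio of CPM to the vehicle mean (vertical axis) against AA132 dose in µM (log axis); lines join the dose means of ZFAS1, SNHG5, SNHG7 and, in grey, the other 7 hosts, and points are libraries of the 3 named hosts. SNHG7 climbs to the highest mean at 30 µM, ZFAS1 starts below vehicle and ends near it, and library 1 is the high point at 10 µM.

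The order of the condition means can be given for each host. Tg ranked 1 of 11 from the top for 9 hosts and 10 of 11 for SNHG16, whose highest mean was at 30 µM AA132 (110.1 ± 19.1 CPM) and lowest at 10 µM (90.3 ± 3.98 CPM). After Tg, the second place went to AA132 at 10 µM for 8 hosts and at 30 µM for SNHG7. These places leaned on AA132 10 µM library 1. Without it, 10 µM was second for 1 host, SNHG15, and last of 11 for GAS5 (11.5 CPM) and SNHG1 (56.5 CPM), Tg was first for 9 hosts and SNHG16 was lowest under Tg. Of the 89 pairs of neighbours in these orders that do not include Tg, 1 had ranges of mean ± SD that did not overlap: SNHG7 at 30 µM AA132 and, below it, at 15 µM (60.6 ± 3.34 CPM). SNHG1, for example, ran from 57.8 ± 6.91 CPM at 0.1 µM to 71.3 ± 25.8 at 10 µM, with vehicle between them at 63.6 ± 1.13 CPM. The lowest mean was at 0.1 µM AA132 for GAS5, ZFAS1, SNHG1, SNHG7 and SNHG12. Without vehicle library 1, vehicle had the lowest mean for SNHG5, SNHG6, SNHG7, SNHG15 and SNHG16.

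Among the snoRNAs of these hosts no rise passed the test under Tg. The table has 35 rows for snoRNAs of the 10 hosts, and 23 passed the filter on low counts. Of the 23, 0 were called higher by edgeR and 1 was called lower, where 16.2% of all genes were called higher and 15% lower. An unadjusted p under 0.05 was found for 2, and the median log2 fold change of the 23 was -0.17. Their SE ran from 0.26 for SNORD80 to 0.85 for SNORA44. The called row was SNORD80 of GAS5 (-0.69, SE 0.26, adjusted p = 0.043). Without vehicle library 1 it was not called (-0.54, adjusted p = 0.181), nor was any other row, where 14.1% of all genes were called higher and 14.3% lower. SNORD74 of GAS5 had the highest estimate (1.40, SE 0.69, adjusted p = 0.13) and SNORD50B of SNHG5 the lowest (-0.97, SE 0.46, adjusted p = 0.11). Rows of short RNAs are thin in these libraries, which were not made for them by label. Reads on a snoRNA may come from the mature snoRNA, from unspliced host RNA or from host isoforms whose exons cover it. These sources cannot be told apart. SNORA9 lies in an exon of the canonical SNHG15 model, and exons of annotated isoforms cover some others, such as SNORD12 of ZFAS1.

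Summed over its 10 snoRNA rows, GAS5 had 5.71, 4.23 and 4.93 CPM in vehicle and 3.91, 4.48 and 4.27 CPM under Tg, a ratio of 0.85 where the host RNA had a ratio of 1.54. These groups overlapped. The 8 snoRNAs of SNHG1, among them SNORD25 and SNORD27 shown above, summed to 5.15, 7.52 and 6.10 CPM in vehicle and 6.27, 6.00 and 5.01 CPM under Tg, a ratio of 0.92 against 1.57 for the host. The 4 snoRNAs of SNHG12 summed to 0.82 ± 0.10 CPM in vehicle and 0.64 ± 0.11 under Tg, a ratio of 0.78 against 1.62, and here the groups did not overlap. Without vehicle library 1 the ratios of GAS5, SNHG1 and SNHG12 rows were 0.92, 0.85 and 0.84. The single row of SNHG8, SNORA24, went the other way with a ratio of 1.89, at 0.0831, 0.109 and 0.053 CPM in vehicle and 0.136, 0.246 and 0.0817 under Tg, from 1 to 13 counts a library, and those groups overlapped. Over the 10 sums, the two-sided exact permutation p was 0.1 for SNHG12, the smallest that 3 against 3 libraries allow, and 0.2 or more for the rest (0.75 or more after adjustment over the 10).

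The 3 snoRNAs of ZFAS1, the most changed host, had 0 to 10 counts a library in sum, and those of SNHG16 had 1 to 14. SNORA17A and SNORA17B of SNHG7 had 0 counts in all 33 libraries. Whether the cargo of these hosts changed could not be told from these counts. The difference between a host and its snoRNA rows was not itself tested.

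**Figure D4:**
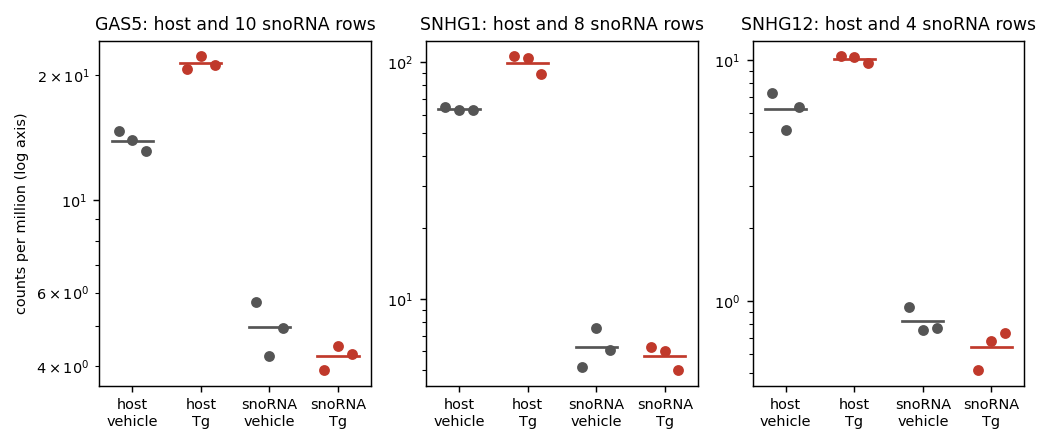
CPM (log axis) of GAS5, SNHG1 and SNHG12 and of the sum of their snoRNA rows in the 3 vehicle and 3 Tg libraries (points), with group means (bars). The host points separate by treatment, at 13.9 and 21.3 CPM for GAS5, while the sums of GAS5 and SNHG1 snoRNA rows overlap.

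Other genes of the same classes give the setting of the hosts. Of 14 further noncoding snoRNA hosts with a row, 6 rose under Tg, 1 fell and 7 did not pass, with a median log2 fold change of 0.21, where 16.2% of all genes were called higher and 15% lower. With vehicle library 1 left out, 7 rose and 1 fell, where 14.1% of all genes were called higher and 14.3% lower. The largest rises were those of SNHG32 (listed as C6orf48; 31.6 ± 2.53 to 95.2 ± 4.43 CPM, 1.59, adjusted p = 2.8e-13), EPB41L4A-AS1 (1.06, adjusted p = 3.0e-08), SNHG11 (1.04, adjusted p = 1.5e-07) and SNHG17 (0.96, adjusted p = 8.0e-11). SNHG10 fell from 28.0 ± 3.30 to 20.2 ± 1.98 CPM (-0.47, adjusted p = 0.00040). SNHG3 (-0.13, adjusted p = 0.31) and SNHG20 (0.07, adjusted p = 0.56) did not pass.

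The 40 protein-coding snoRNA hosts, most of them ribosomal protein genes that share the TOP motif, had a median of 0.0019: 5 rose and 6 fell, shares near those of all genes (16.2% and 15%). These counts turned with vehicle library 1, without which 11 rose and 4 fell, with a median of 0.13, where 14.1% of genes were called higher and 14.3% lower. HSPA8, a cytosolic heat shock chaperone, fell from 3186 ± 153 to 1087 ± 39.8 CPM (-1.55, adjusted p = 8.1e-19). EIF4A1, a translation initiation helicase, fell by 0.59 on the log2 scale (adjusted p = 0.039, and 0.053 without vehicle library 1), and NOP56, a box C/D core protein, by 0.41 (adjusted p = 1.4e-05). RPL7A, a protein of the large ribosomal subunit, fell by 0.31 (adjusted p = 0.0033), and HSPA9, the mitochondrial HSP70, rose by 0.58 (adjusted p = 2.6e-11). Lists were described by these counts, and no test compared one list with another.

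**Figure D5:**
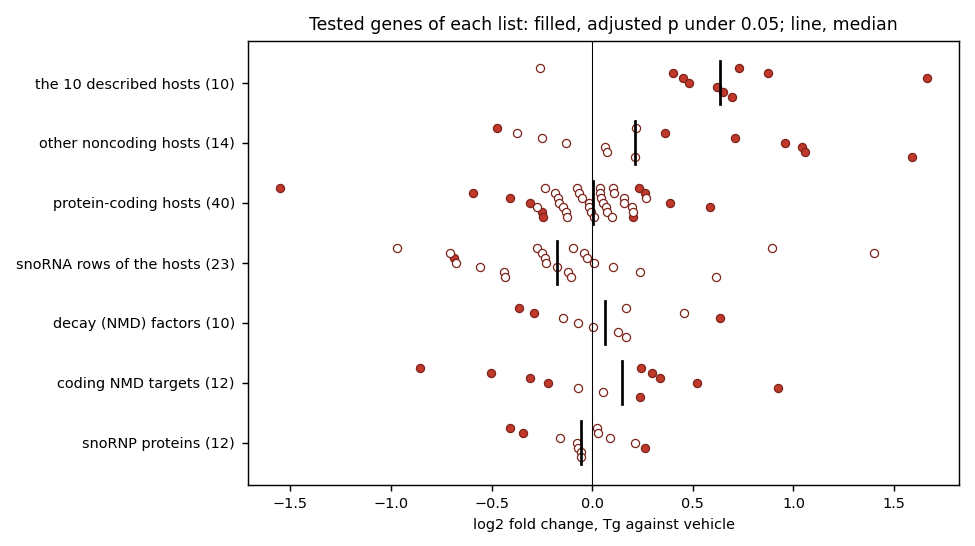
Log2 fold change under Tg against vehicle for the tested genes of 7 lists (number tested in brackets); filled points have an edgeR adjusted p under 0.05 and vertical lines are medians. The 10 hosts have a median of 0.63, the coding hosts 0.0019 and the snoRNA rows of the hosts -0.17.

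Of 10 NMD factors, 1 rose under Tg, 2 fell and 7 did not pass, near the 31.2% of all genes called. Leaving out vehicle library 1, 4 rose and 2 fell, where 14.1% of all genes were called higher and 14.3% lower. SMG5 (0.20, adjusted p = 0.0145), SMG9 (0.24, 0.0159) and UPF3A (0.23, 0.0489) were among those that rose in that fit. UPF3B, which links the exon junction complex to UPF2, rose from 21.3 ± 2.55 to 33.1 ± 1.302 CPM (0.63, adjusted p = 4.4e-06), SMG8 fell (-0.36, adjusted p = 6.4e-07) and UPF2 fell (-0.29, adjusted p = 0.0029). UPF1, the central helicase of the pathway, was at 216 ± 6.82 CPM in vehicle and 206 ± 11.7 under Tg and did not pass (-0.07, adjusted p = 0.45). Of the 5 exon junction complex genes, MAGOHB (0.51, adjusted p = 7.4e-05) and MAGOH (0.32, adjusted p = 0.0043) rose and EIF4A3 fell (-0.35, adjusted p = 0.00014).

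Coding genes described as NMD targets moved both ways. Of 12, 6 rose and 4 fell, with a median of 0.15, where 16.2% of all genes were higher and 15% lower. In the fit without vehicle library 1, 5 rose and 3 fell, where 14.1% of all genes were called higher and 14.3% lower. GADD45B was among those lost in that fit (-0.20, adjusted p = 0.0792). GADD45A, a growth arrest gene, rose from 23.4 ± 3.96 to 44.3 ± 1.18 CPM (0.92, adjusted p = 3.9e-08) and TBL2 rose by 0.52 (adjusted p = 2.8e-06). SRSF2 (-0.86, adjusted p = 9.8e-14), SRSF7 (-0.50, adjusted p = 1.3e-09), GADD45B (-0.31, adjusted p = 0.0068) and SRSF6 (-0.22, adjusted p = 0.0061) fell. The SRSF genes encode splicing factors whose poison-exon isoforms, not their main mRNAs, are the NMD targets, and counts per gene do not separate them.

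Of the 12 proteins of the snoRNA particles, the pseudouridine synthase DKC1 rose (0.26, adjusted p = 0.0021), and NOP56 and NOP10 (-0.34, adjusted p = 0.011) fell, and 9 did not pass, where 31.2% of all genes were called. NOP10 was not called without vehicle library 1 (-0.20, adjusted p = 0.146), and SNU13, a core protein of box C/D particles, then rose (0.37, adjusted p = 0.000879). The methyltransferase FBL, which acts in box C/D particles, was among the 9 that did not pass with all libraries (-0.16, adjusted p = 0.15).

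Markers of the integrated stress response, the programme that lowers translation initiation through eIF2α and induces ATF4, rose with Tg and with the higher doses of AA132. All 8 were called higher under Tg, with a median log2 fold change of 2.35, and all 8 at 30 µM AA132, with a median of 0.72, where 16.2% and 3.86% of all genes were higher. All 8 were called higher in both without vehicle library 1 as well, where 14.1% and 5.55% of all genes were. At 6, 10 and 15 µM AA132, where no host was called, 2, 5 and 7 of the 8 were called higher, with medians of 0.24, 0.40 and 0.53. Of all 17793 tested genes, 154, 184 and 350 were called higher at these doses. The same 8 were lower at 30 µM AA132 than under Tg, where 15.5% of all genes were. ATF4 was at 466 ± 53.8 CPM in vehicle, 981 ± 3.60 under Tg and 634 ± 51.1 at 30 µM AA132. DDIT3, the stress factor CHOP, rose from 7.85 ± 0.84 to 96.6 ± 6.82 and 19.8 ± 0.90 CPM. The 10 hosts had medians of 0.63 and 0.04 in the same 2 comparisons, which share the vehicle libraries. No test related the markers to the hosts.

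The profiles of the hosts over the conditions were compared with each other. The correlation of the 11 condition means of a host with the average of the other 9 was 0.855 to 0.98 for 9 hosts, highest for ZFAS1, and -0.358 for SNHG16. Over the 10 conditions without Tg it was 0.886 for ZFAS1, 0.83 for SNHG12 and 0.827 for SNHG1, but 0.102 for SNHG15 and 0.0263 for SNHG16. These points share libraries and the single high AA132 10 µM library, and the values are descriptions. Among 9777 other genes with a mean of at least 10 CPM, the profiles most like that of the hosts were those of DNAJC25 (r = 0.99 over 11 means), HIST3H2A, ARNTL, EXOSC8, SAT1, KLHDC2, NVL, HAX1, ZFAND1 and SUCO (each 0.98). Each of these genes was called higher under Tg, where 16.2% of all tested genes were, but a profile that peaks under Tg selects such genes. Their calls are therefore no separate result, and their correlation without Tg was not computed.

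Several hosts overlap a protein-coding gene on the opposite strand, and the use of strand in counting is not given, so reads of the pair may be mixed. Of the exonic bases of SNHG6, 58.88% overlap MCMDC2, of SNHG8 37.6% PRSS12 and of SNHG7 30.29% FAM69B. None of the 7 coding partners was called higher under Tg, where 16.2% of all genes were. Without vehicle library 1 none was either, where 14.1% were. MCMDC2 was thin, at 0.36 ± 0.17 CPM in vehicle and 0.56 ± 0.35 under Tg (0.64, SE 0.57). Whether reads were mixed was not tested. Among the 7, PRSS12 fell (-0.38, adjusted p = 9.8e-05), as did FAM69B (-0.34, adjusted p = 0.0046) and TRNAU1AP beside SNHG12 (-0.31, adjusted p = 0.017). When vehicle library 1 was left out, FAM69B (-0.16, adjusted p = 0.114) and TRNAU1AP (-0.14, adjusted p = 0.258) were not called, and ZNFX1 was called lower (-0.22, adjusted p = 0.0231). With all libraries ZNFX1, beside ZFAS1, was at 32.6 ± 3.87 CPM in vehicle and 29.9 ± 1.67 under Tg (-0.12, adjusted p = 0.23). Over all genes, the median log2 fold change under Tg was -0.05 for transcripts up to 1500 bases and 0.06 for those over 5000 bases, and the 10 host transcripts measure 498 to 6166 bases.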

How the data were processed

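RNA was sequenced from HEK293T cells in 11 conditions, with 3 numbered columns for each. Per the file headers, the deposited values are expected counts, total reads per gene on a linear scale, which the authors did not scale between libraries. The build is GRCh38.p7, per the submitters' processing notes. The aligner, counter, annotation and use of strand are not given in the sources used here. A floor of 0.009 replaces 0 in 43.5% of the table, and 3.22% of its values are fractional. The floor was set to 0, the 98 entries sharing 45 names were summed by name, and values were rounded. Of 38074 entries, 38021 genes resulted. Another 28 entries carried names that had turned into dates and stayed in the totals, unnamed.

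Conditions were tested in R 4.3.3 with edgeR 4.0.16 (quasi-likelihood, TMM scaling). The edgeR filter on low counts left 17793 genes in the fit of all 11 conditions and 17554 in the fit of AA132 dose. Calls required an adjusted p (Benjamini-Hochberg, over all genes tested) under 0.05. No replicate block was used: deviations of libraries with the same number in different conditions had a median correlation of 0.000453 over 165 pairs. Other scalings, no filter, a replicate block, DESeq2 1.42.0, fits of the compared conditions only and the omission of each library were the alternatives. The model was tested on simulated counts. Intervals cover 95% and rest on the spread between libraries. Reads carry no molecular identifiers, so counts are not counts of molecules.

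Positions, introns and reading frames are from GENCODE version 44 on GRCh38, and start sites from RefSeq on GRCh38.p14. Neither played a part in counting. The 10 hosts, the gene lists and the alternatives were chosen with earlier results of these data known. All 10 hosts were named. Of other lists, up to 4 called genes with the largest change under Tg and up to 4 called against the median of the list were named, and stress markers freely. The genes most like the hosts were the 10 with the highest correlation of condition means. UPF1, FBL, SNHG3, SNHG20, SMG5, SMG9, UPF3A, SNU13, sequence features, the overlapping genes and the counts of other lists without vehicle library 1 were described after values were seen. Some overlapping genes are not reported here.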

Additional observations from a re-analysis of the deposited data

How the results depend on the processing

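The count of hosts called under Tg was 9 with other size factors, upper quartile scaling, a replicate block and DESeq2, 10 with no filter on low counts, where SNHG16 was lower, 8 in the fit of the compared conditions alone, and 7 to 9 with each library left out. For AA132 at 30 µM against Tg it was 8 to 10 under those settings and 7 to 8 with a library left out. At 30 µM AA132 it was 0 in the fit of the compared conditions alone, in place of 1, and 0 to 3 with a library left out. At 10 µM it was 1 with no filter and 0 to 1 with a library left out, and at 15 µM 0 to 1. For the slope it was 1 with vehicle at dose 0, in place of 3, and 3 to 4 with a library left out. The cause was not tested. AA147, AA132 from 0.1 to 6 µM, and AA132 against AA147 gave 0 calls under each alternative run. Of 1750 alternative values of single hosts, 139 changed sign, all where neither value was called. Over all genes, libraries of the same number showed no common deviation (same-number correlations from -0.148 to 0.183). The libraries of vehicle, AA147 and AA132 10 µM that stood apart for the hosts nevertheless all carry number 1, and a batch shared by some conditions was not tested. The replicate block changed no call of a host: 9 hosts under Tg, 3 for the slope and 5572 genes in all under Tg.

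Counts over all genes moved more. Fitted on the compared conditions alone they were 3073 in place of 5551 under Tg, 74 in place of 1255 at 30 µM AA132 and 8 in place of 250 at 10 µM. Without the 30 µM dose the slope gave 2046 genes in place of 3286, and DESeq2 gave 26 in place of 4 for AA147 and 466 in place of 250 at 10 µM AA132. Where a group keeps 2 libraries, the spread is that of all groups. Of the snoRNA rows, 12 of 35 had too few counts to pass the filter. Among them were those of ZFAS1 (0 to 10 counts a library in sum), SNHG16 (1 to 14) and SNHG7 (0). Why these rows hold few counts was not tested.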
